A study of Homo sapiens with 4 samples.

Results

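GAS5, SNHG1, SNHG5, SNHG6, SNHG7, SNHG8 and SNHG12 are noncoding genes whose introns carry small nucleolar RNAs (snoRNAs), and they were chosen by name as a family. Of these 7 genes, 6 had entries in the tables, with 87 transcripts among the 168036 transcripts of 53617 genes. SNHG8 had no entry under its name, its identifier or its transcripts' identifiers, and is not analysed here beyond its start sequence. The values come from RNA sequencing of HT29, an established human colon cancer cell line, at passages 12 to 13. One culture was transfected with a precursor of miR-23b (labelled as high miR23b), 1 with the control of that precursor, 1 with an antimir against miR-23b and 1 with the control of the antimir. Each was given at a concentration the labels write as 50nm with Lipofectamine 2000, in medium with 5% serum, and Trizol RNA followed 48 h later. For all 4 cultures the labels also give a medium change at 24 h and a confluency of 90%. The precursor supplies the cell with extra microRNA, whereas the antimir pairs with the endogenous one and blocks it. The study asked which mRNAs respond to miR-23b. Each group held 1 library, so no difference below has a replicate check and none is given a p-value of its own.

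A snoRNA host gene is transcribed and spliced like an mRNA gene, and the snoRNAs are trimmed out of the excised introns. They then guide chemical modification of ribosomal and other RNAs, box C/D snoRNAs (SNORD) directing 2′-O-methylation and box H/ACA snoRNAs (SNORA) directing pseudouridylation. In the noncoding hosts the spliced exons encode no conserved protein, and several of these spliced RNAs are short-lived because translating ribosomes send them to nonsense-mediated decay. GAS5, first found in growth-arrested mouse cells, carries a run of box C/D snoRNAs and can bind the glucocorticoid receptor as a decoy. SNHG1 carries the snoRNAs around SNORD22, SNHG5 the SNORD50 pair, SNHG6 SNORD87, SNHG7 SNORA17 and SNORA43, and SNHG12 a mixed set of both classes. Many hosts begin with a pyrimidine tract, the terminal oligopyrimidine element that they share with ribosomal protein genes.

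The sequence by which miR-23b recognises a transcript and its matches in the host RNAs are shown first, because the treatments act on this microRNA. The mature miR-23b-3p, from RefSeq (GRCh38.p14, chr9:95085265-95085287, plus strand), is printed with its seed, bases 2 to 8, in capitals.
hsa-miR-23b-3p: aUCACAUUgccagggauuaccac
The complement of the seed, AATGTGA, was searched on the transcript strand in the GENCODE 29 sequences of 85 of the 87 member transcripts. It was found in 16 of them (18.8%), against 10.6% of 28437 noncoding transcripts, at median lengths of 696 and 656 bases. Those 16 are overlapping transcripts of 3 genes that share the contexts printed below. They are therefore not independent, and the 2 shares were not tested against each other. Its contexts in 3 hosts are printed with the match in capitals, and 2 separate contexts occurred in GAS5.
SNHG5: aatgaatgtcgAATGTGActgactagcag
GAS5, in 5 transcripts: ttaaaagttaaAATGTGActgagaaggaa
GAS5, in 2 transcripts: atactgaagaaAATGTGAaaacagatact
SNHG1: agagattgtaaAATGTGAcatagaatgaa
Only the GAS5 context found in 2 transcripts is followed by the A that makes an 8-base match. These letters were not in the sequences searched for SNHG7 and SNHG12, nor in the 5 searched for SNHG6. A match is a string of letters and was not tested as a binding site. The sequences are an approximation to the annotation behind the tables, since 14 of the 85 transcripts carried the same version number in both.

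In SNHG5 the match lay in 7 of 10 transcripts, including the main one, ENST00000414002. Those 7 transcripts summed to 69.5 FPKM in the precursor library and 76.6 FPKM in its control. In the antimir library they summed to 66.3 FPKM, against 59.9 FPKM in its control. They held between 90.5% and 96.9% of all SNHG5 FPKM in the 4 libraries, so that nearly all measured SNHG5 RNA carried the match. In GAS5 the match lay in 7 of 29 transcripts, all 7 of which keep an intron in the GENCODE 29 annotation. Those GAS5 transcripts summed to 73.0 FPKM with the precursor and 94.5 FPKM in its control, and to 95.7 FPKM with the antimir and 82.1 FPKM in its control. In SNHG1 the 2 transcripts with a match, also intron-retaining, were at 5.995 FPKM with the precursor and 8.83 FPKM in its control, and at 6.94 FPKM with the antimir and 7.87 FPKM in its control. The summed level of the matching transcripts was thus lower with the precursor than in its control in all 3 genes, and higher with the antimir in SNHG5 and GAS5 but not in SNHG1. All intron-retaining transcripts of GAS5, with or without a match, summed to 188 FPKM with the precursor and 251 FPKM in its control. Those of SNHG1 summed to 83.5 and 104 FPKM. With the antimir and its control these sums were 191 and 166 FPKM in GAS5, and 92.1 and 70.7 FPKM in SNHG1. Hosts without a match in the sequences searched varied too. SNHG12 was at 26.3 FPKM with the precursor and 34.0 FPKM in its control, and at 29.1 FPKM with the antimir and 25.7 FPKM in its control. The summed FPKM of SNHG6 had the same 2 directions and that of SNHG7 the reverse. Whether the match has a part in these differences was not tested.

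The start regions are shown because ribosomal protein genes, which are set beside these hosts further on, carry the pyrimidine tract at their first base. Each window runs from 50 bases before to 20 bases from the RefSeq start (GRCh38.p14), on the gene's own strand, with a TATAA within 45 to 19 bases before the start and a pyrimidine run beginning within 5 bases of the start in capitals. A run was counted where it had at least 5 pyrimidines and opened with a C that either followed a purine or was the start base itself.
SNHG5 (chr6:85678714-85678783, minus strand): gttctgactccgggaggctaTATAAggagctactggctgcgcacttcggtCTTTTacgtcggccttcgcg
SNHG7 (chr9:136728165-136728234, minus strand): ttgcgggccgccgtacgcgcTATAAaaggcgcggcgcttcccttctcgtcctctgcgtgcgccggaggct
SNHG8 (chr4:118278712-118278781, plus strand): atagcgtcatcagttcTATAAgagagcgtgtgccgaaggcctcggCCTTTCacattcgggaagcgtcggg
SNHG12 (chr1:28581854-28581923, minus strand): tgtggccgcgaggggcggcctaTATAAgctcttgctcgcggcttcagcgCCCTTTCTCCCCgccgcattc
TATAA was present in the 4 windows printed, out of 6 examined, against 4.02% of 35116 RefSeq promoters. The pyrimidine run was present in 3 of the 6, against 15.5% of all promoters and 65.8% of 79 ribosomal protein promoters. The pyrimidines around the starts of SNHG7 and SNHG1 open with a T, and fewer than 5 run on from the C at the start base. They were therefore not counted under that rule. The windows of GAS5 and SNHG1 held neither pattern, as counted here, at the listed start, and SNHG6 was not examined. A pattern at a listed start is a description of that window only.

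The tables place the hosts on hg19 in loci that also take in overlapping genes, except for SNHG1 and SNHG5. GAS5 lies in chr1:173831290-173866494, SNHG12 in chr1:28879597-28909495, SNHG1 in chr11:62619460-62623386, SNHG5 in chr6:86386725-86388451 and SNHG7 in chr9:139607022-139622636. SNHG6 lies on chromosome 8. The annotation types every measured host as noncoding, so their exons hold no coding sequence or UTR.

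Levels are given in FPKM, a density of sequenced fragments corrected for transcript length and total fragments, summed over a gene's transcripts. GAS5 was the most abundant host, at 1241 and 1181 FPKM with the precursor and its control, and at 755 and 751 FPKM with the antimir and its control. It ranked between 165 and 210 among all genes with a value above 0 in the 4 libraries. SNHG6 followed at 395 and 398 FPKM with the precursor and its control, and at 356 and 342 FPKM with the antimir and its control. SNHG1 came next at 278 and 295 FPKM with the precursor and its control, and at 191 and 180 FPKM with the antimir and its control. SNHG5 stood well below these, at 76.8 and 82.4 FPKM with the precursor and its control, and at 68.4 and 65.1 FPKM with the antimir and its control. SNHG7 lay close under SNHG5, at 66.0 and 64.9 FPKM with the precursor and its control and at 63.3 and 64.1 FPKM with the antimir and its control. SNHG12 was lowest, at 26.3 and 34.0 FPKM with the precursor and its control, and at 29.1 and 25.7 FPKM with the antimir and its control. The order GAS5, SNHG6, SNHG1, SNHG5, SNHG7, SNHG12 held in each of the 4 libraries, though SNHG5 and SNHG7 were nearly equal in the antimir control. The 6 genes together made up 0.0744% of all FPKM with the precursor and 0.0722% in its control, and 0.1% with the antimir and 0.0924% in its control. The 2 tables had been normalised separately, so levels set side by side across them carry that difference in scaling. In bulk RNA, fewer cells expressing a gene and less RNA per cell cannot be told apart.

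**Figure D1:**
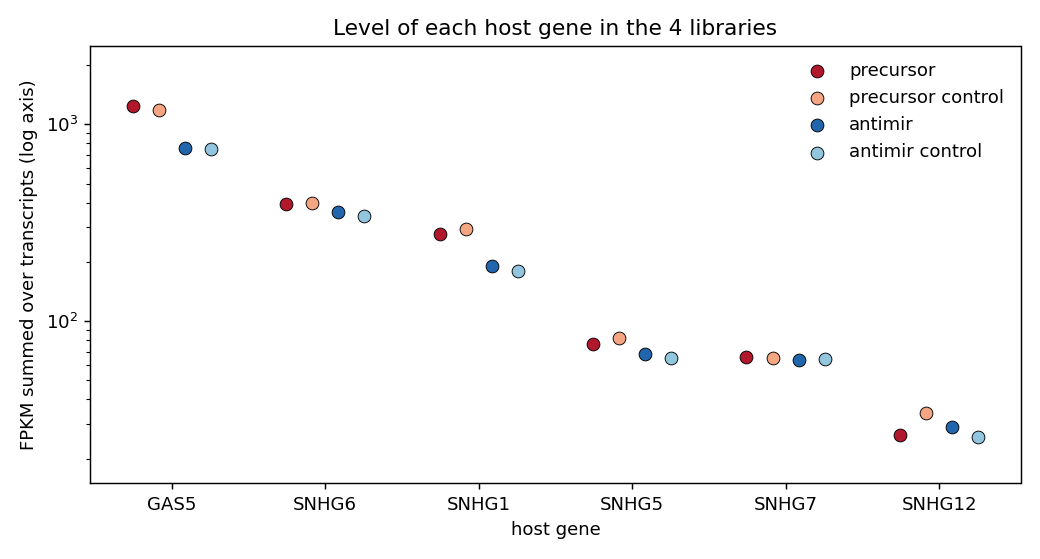
Summed FPKM of the 6 measured snoRNA host genes (log axis) in the precursor, precursor control, antimir and antimir control libraries, 1 point per library. GAS5 sits highest, between 751 and 1241 FPKM, and SNHG12 lowest, between 25.7 and 34.0 FPKM, and within a gene the treated and control points of one table lie close together.

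Markers put these levels in context. The colon epithelial genes EPCAM, KRT8, KRT18, KRT20, VIL1 and LGALS4 were all above 100 FPKM in the 4 libraries, while CDH17 and CDX1 stayed under 1 FPKM. None of 12 markers of immune, endothelial, stromal, muscle or neural cells reached a mean of 1 FPKM. A list of 15 interferon-induced genes was drawn up because their levels had moved in the antimir comparison in earlier results of these data. That choice largely fixed their count there, which is given as context only. Of the 15, 15 were more than 1.5-fold higher with the antimir than in its control, against 720 of all 14190 genes. The 15 summed to 5169 FPKM with the antimir and 1634 FPKM in its control. Of these genes, 12 were measured in the precursor table, 11 of them lower with the precursor, and their sum was 1860 FPKM against 2183 FPKM in its control. The part of that interferon difference in the antimir values of the host genes was not tested.

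With the miR-23b precursor, the summed level of the host genes stayed close to that of the control. Differences are given as log2(FPKM + 1) of the treated library minus that of its control, less the median difference of all genes at a mean FPKM of at least 1, so that 0 is the median gene. All 6 genes passed that filter, and 0 of 6 lay past 1.5-fold, against 6.68% of 16982 genes in either direction. At a mean FPKM of at least 20, where all 6 hosts lie, the share was 4.11% of 7010 genes and 5.71% of 105 noncoding genes. With shares this low, a count of 0 among 6 genes does not set the hosts apart. The median over the 6 was -0.07, with 2 genes above 0 and 4 below. GAS5 was at 0.05, SNHG7 at 0.00, SNHG6 at -0.04, SNHG1 at -0.11 and SNHG5 at -0.12. SNHG12, which has been described as a proliferation-linked RNA in several tumour types, was furthest from 0 at -0.38, with 26.3 FPKM in the precursor library and 34.0 FPKM in its control. Among 5028 genes within 2-fold of its level, 7.44% lay at least as far from 0. The protein-coding gene TRNAU1AP overlaps SNHG12 on the opposite strand and was at 29.8 FPKM with the precursor and 33.9 FPKM in its control, a difference of -0.20. Strandedness of the libraries is not stated in the labels, so reads of such overlapping pairs cannot be told apart. The same limit applies to GAS5 with ZBTB37, at 1.42 FPKM with the precursor and 1.94 FPKM in its control, and for SNHG6 and SNHG7, whose opposite-strand partners C8orf45 and FAM69B stayed at or below 1.13 FPKM. The direction of SNHG1 depended on how isoforms were combined: it was 0.32 for the most abundant transcript alone and 0.00 without intron-retaining transcripts, and the median of the 6 genes was 0.075 and -0.01 in those cases. With FPKM multiplied by spliced length SNHG1 was further below 0, at -0.21.

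With the antimir, all 6 host genes lay above 0, again by little. The median was 0.10, and 0 of 6 lay past 1.5-fold, against 7.97% of 14190 genes. At a mean FPKM of at least 20 the share was 4.57% of 5235 genes and 3.66% of 82 noncoding genes, so this count does not set the hosts apart either. SNHG12 was furthest from 0 at 0.21, followed by SNHG1 at 0.12, SNHG5 at 0.11, SNHG6 at 0.10, GAS5 at 0.05 and SNHG7 at 0.02. Of the 4491 genes near the level of SNHG12, 26.8% lay at least as far from 0 as it did. SNHG7 had a slightly lower FPKM with the antimir than in its control and lies above 0 only after centring. The number above 0 was 5 with no filter, with no centring, with only the transcripts the authors tested or with FPKM multiplied by spliced length. It dropped to 3 when each gene was represented by its most abundant transcript, and also to 3 when intron-retaining transcripts were left out. Without those transcripts SNHG1 was at -0.10 and SNHG12 at -0.12, and the median of the 6 genes was 0.00.

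SNHG1, SNHG5, SNHG6 and SNHG12 were below 0 with the precursor and above 0 with the antimir. This held for 4 of 6 hosts and for 28.4% of 4679 named genes at 20 FPKM or more. Of those 4679 genes, 15 (0.321%) were at least as far from 0 as SNHG12 in both directions. SNHG12 was the host furthest from 0 in both comparisons and its own values set that limit, so the share does not measure chance. The 5 genes whose pair of differences lay nearest to the hosts' medians, by Euclidean distance over the 2 comparisons, were PLEKHA7, SPOP, NARS2, CAMK2G and LDHB, at distances from 0.0027 to 0.0056. The direction of SNHG1 and SNHG12 with the antimir rests on the intron-retaining transcripts within their sums, since without them neither lay above 0 there. With the precursor, SNHG12 was still below 0 without those transcripts, at -0.21, while SNHG1 was at 0.00.

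**Figure D2:**
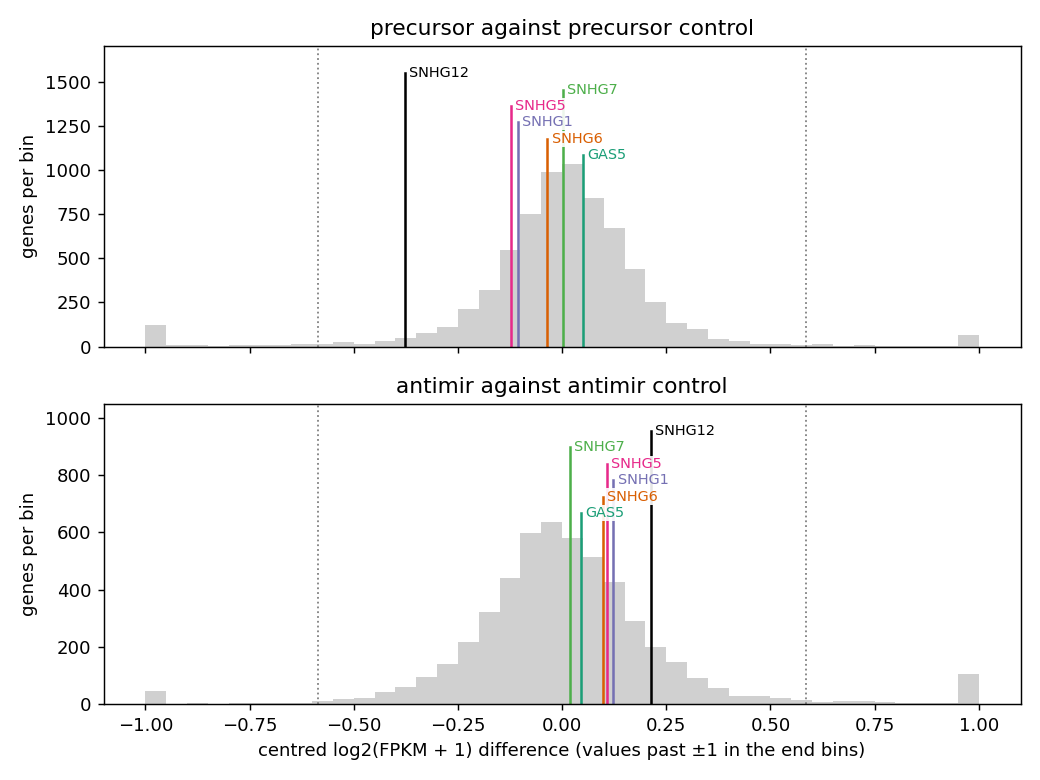
Histograms of centred log2(FPKM + 1) differences of all genes at a mean FPKM of 20 or more (grey bars, genes per bin), precursor against precursor control above and antimir against antimir control below, with a coloured line for each of the 6 host genes and dotted lines at 1.5-fold. All 6 hosts lie inside the dotted lines, between -0.38 and 0.05 with the precursor and between 0.02 and 0.21 with the antimir.

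Single transcripts differed more than these near-equal sums. With the precursor, 58 of the 87 transcripts had a mean FPKM of at least 1, of which 17 were above 0 and 41 below. Of these, 1 was more than 1.5-fold higher and 13 were more than 1.5-fold lower, together 24.1%. Over all 53771 transcripts 5.52% were higher and 5.97% lower past that fold, together 11.5%. The authors' deposited table, which compares 2 libraries and not 2 conditions, calls 1 of 69 tested host transcripts higher and 18 lower, against 6.91% and 6.66% of all tested transcripts (13.6% together). With the antimir, 49 transcripts passed the filter, 31 above 0 and 18 below. There, 7 were more than 1.5-fold higher and 4 lower, together 22.4%. Over all 40627 transcripts 10.4% were higher and 10.2% lower, together 20.6%. The authors' deposited table calls 0 of 63 tested host transcripts in the antimir comparison, against 0.414% of all tested transcripts. Many of these transcripts are short alternatives of one locus whose reads overlap, so the split of a gene's FPKM among them is an estimate by the authors' software.

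Transcripts are given by value where they held more than 5% of their gene's FPKM on average over the 2 libraries of at least 1 comparison. In GAS5, 6 of 29 transcripts did so and carried between 81.3% and 86.4% of it. The short spliced form ENST00000425771 was at 532 FPKM with the precursor and 461 FPKM in its control, and at 129 FPKM with the antimir and 157 FPKM in its control. The form ENST00000450589, with 12 exons, was at 226 FPKM with the precursor and 176 FPKM in its control. It is the only host transcript that the authors' deposited table calls higher, with a q-value of 0.0117. In the antimir table this form stood at 264 FPKM with the antimir and 276 FPKM in its control, and so was the larger of the 2 forms there. Another spliced form, ENST00000448718, which the authors did not test, was at 83.9 FPKM with the precursor and 68.6 FPKM in its control, and at 148 FPKM with the antimir and 121 FPKM in its control. ENST00000422008, which keeps an intron and holds the seed match, was at 61.6 FPKM with the precursor and 78.9 FPKM in its control, and at 76.3 FPKM with the antimir and 69.5 FPKM in its control. These 3 spliced forms were thus higher with the precursor than in its control, while the intron-retaining form was lower. The spliced ENST00000452197 was lower too, at 97.1 FPKM with the precursor and 106 FPKM in its control. No common direction therefore ran through the spliced forms of GAS5. The antimir values of ENST00000452197 are given with the isoform make-up. The last form over 5%, ENST00000414075, was at 71.7 FPKM with the precursor and 68.6 FPKM in its control, and at 16.5 FPKM with the antimir and 21.9 FPKM in its control.

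In SNHG1, 8 of 25 transcripts passed that average of 5%. The spliced form ENST00000539303 was at 75.8 FPKM with the precursor and 59.5 FPKM in its control, and at 31.2 FPKM with the antimir and 24.7 FPKM in its control. ENST00000535076, an intron-retaining form, was at 42.5 FPKM with the precursor and 47.1 FPKM in its control, and at 53.7 FPKM with the antimir and 41.4 FPKM in its control. ENST00000541578, a spliced form with 11 exons, was lower under both treatments, at 17.5 FPKM with the precursor and 28.5 FPKM in its control, and at 10.6 FPKM with the antimir and 24.9 FPKM in its control. No common direction therefore ran through the spliced forms of SNHG1. The spliced ENST00000537068 was at 24.2 FPKM with the precursor and 29.5 FPKM in its control, and at 20.1 FPKM with the antimir and 18.2 FPKM in its control. ENST00000545440 was at 18.951 FPKM with the precursor and 19.1 FPKM in its control, and at 10.8 FPKM with the antimir and 11.8 FPKM in its control. A further spliced form, ENST00000542112, was at 19.2 FPKM with the precursor and 18.7 FPKM in its control and was listed at 0 in both antimir libraries. The smallest q-value of any host transcript in the authors' deposited table, 6.72e-07, belonged to ENST00000539975, at 1.24 FPKM with the precursor and 4.90 FPKM in its control. In the antimir table that form was at 23.7 FPKM with the antimir and 24.0 FPKM in its control.

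The other 4 hosts have fewer forms. SNHG5 had 1 transcript over 5%, ENST00000414002, at 61.3 FPKM with the precursor and 67.1 FPKM in its control, and at 60.5 FPKM with the antimir and 55.2 FPKM in its control. SNHG6 was led by ENST00000521399, at 289 FPKM with the precursor and 285 FPKM in its control, and at 258 FPKM with the antimir and 240 FPKM in its control. A second SNHG6 form, ENST00000499996, which the authors did not test, was at 91.4 FPKM with the precursor and 94.7 FPKM in its control, and at 88.4 FPKM with the antimir and 91.1 FPKM in its control. The main form of SNHG5 was on the same side of its control as its gene in both comparisons. The main form of SNHG6 was slightly above its control with the precursor, where the gene's sum was slightly below, and both were above with the antimir. SNHG7 divided between ENST00000416970, at 55.4 FPKM with the precursor and 48.5 FPKM in its control, and ENST00000436596, at 10.6 FPKM with the precursor and 16.4 FPKM in its control. With the antimir both SNHG7 forms lay on the other side of their control: ENST00000416970 was at 44.3 FPKM against 51.0 FPKM in the control, and ENST00000436596 at 18.8 FPKM against 13.1 FPKM. In SNHG12 the spliced form ENST00000475441 was at 13.6 FPKM with the precursor and 15.6 FPKM in its control, and at 10.5 FPKM with the antimir and 10.8 FPKM in its control. The intron-retaining ENST00000470977 of SNHG12 was at 7.73 FPKM with the precursor and 10.5 FPKM in its control, and at 10.6 FPKM with the antimir and 8.07 FPKM in its control. The 2 smaller SNHG12 forms over 5% also keep an intron. ENST00000464612 was at 2.46 FPKM with the precursor and 3.13 FPKM in its control, and at 5.41 FPKM with the antimir and 3.34 FPKM in its control. ENST00000461832 was at 1.17 FPKM with the precursor and 3.17 FPKM in its control, and at 1.03 FPKM with the antimir and 1.32 FPKM in its control. All 4 SNHG12 forms were lower with the precursor than in its control.

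**Figure D3:**
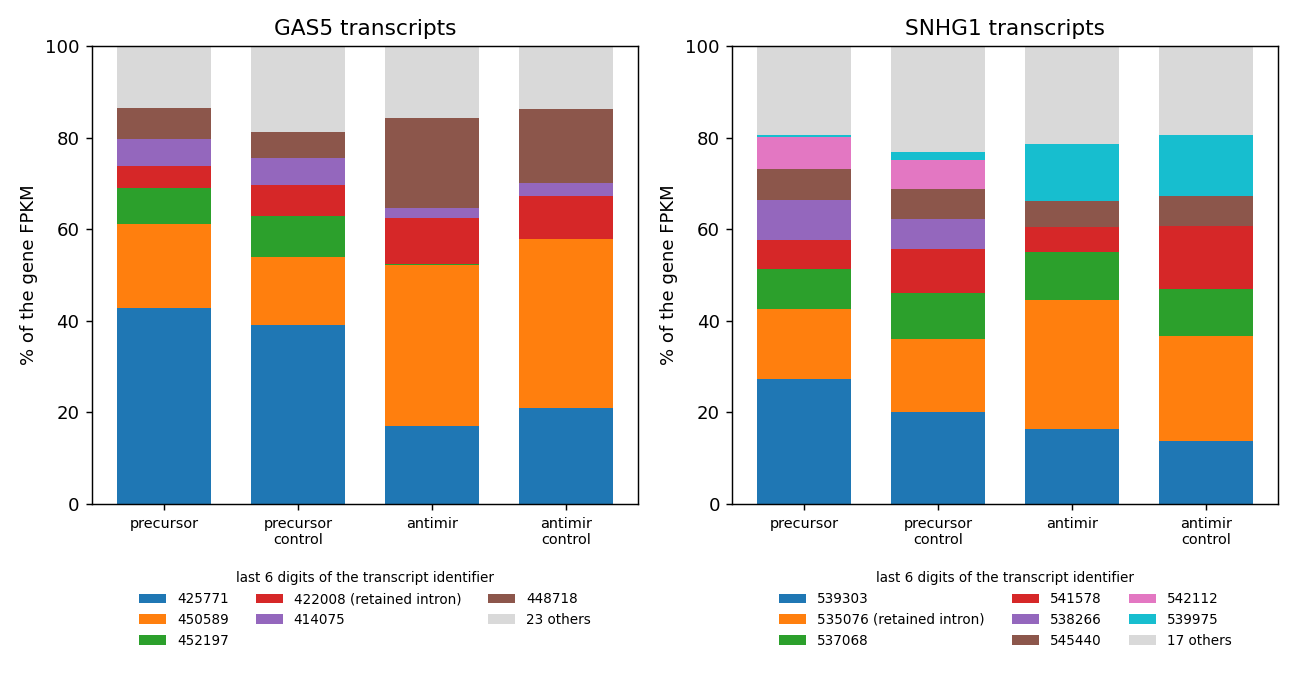
Stacked bars of the percent of GAS5 FPKM (left) and SNHG1 FPKM (right) held by each transcript averaging over 5% in at least 1 comparison, in the precursor, precursor control, antimir and antimir control libraries, with the remaining transcripts in grey. The treated and control bars of a table are more alike than bars of different tables, and ENST00000425771 of GAS5 holds 42.9% with the precursor and 39.1% in its control but 17.1% with the antimir and 21.0% in its control.

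Grouping the transcripts by whether GENCODE 29 types them as retained intron, a grouping chosen after the values were seen, separated the 2 treatments. The intron-retaining transcripts of the hosts summed to 295 FPKM with the precursor and 394 FPKM in its control, which was 14.2% and 19.2% of all host FPKM. With the antimir they summed to 314 FPKM, against 262 FPKM in its control, or 21.5% and 18.3%. The other typed transcripts summed to 1696 FPKM with the precursor and 1566 FPKM in its control, and to 1060 FPKM with the antimir and 1074 FPKM in its control. The summed intron-retaining level was lower with the precursor in all 5 hosts that have such transcripts, and higher with the antimir in 4 of them, the exception being SNHG5.

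By gene, GAS5 had 188 FPKM of intron-retaining transcripts with the precursor and 251 FPKM in its control, and 191 FPKM with the antimir and 166 FPKM in its control. SNHG1 had 83.5 FPKM with the precursor and 104 FPKM in its control, and 92.1 FPKM with the antimir and 70.7 FPKM in its control. SNHG12 had 12.4 FPKM with the precursor and 17.9 FPKM in its control, and 18.3 FPKM with the antimir and 13.5 FPKM in its control. In SNHG12 these forms made up about as much of the gene as the spliced ones, 47.0% with the precursor and 52.8% in its control, and 62.8% with the antimir and 52.6% in its control. SNHG6 had 1 such transcript, at 5.79 FPKM with the precursor and 11.8 FPKM in its control, and at 9.08 FPKM with the antimir and 7.55 FPKM in its control. SNHG5 had 6.01 FPKM with the precursor and 8.75 FPKM in its control, and 3.97 FPKM with the antimir and 4.28 FPKM in its control. SNHG7 has no transcript of this type.

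Counted one by one, 28 of 31 intron-retaining host transcripts at a mean FPKM of at least 1 were below 0 with the precursor, against 60.1% of 7285 such transcripts of all genes. Of the hosts' other typed transcripts, 12 of 26 were below 0. With the antimir 5 of 28 intron-retaining host transcripts were below 0, against 44.8% of 5269 over all genes, and of the hosts' other transcripts 12 of 20 were. The authors' deposited table calls 13 of the 36 tested intron-retaining host transcripts lower with the precursor and 0 higher, against 7.95% lower and 3.41% higher among 12048 tested over all genes. Overlapping transcripts of 1 gene share reads and are not independent, so the counts describe 5 genes.

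A lean in the same directions, smaller at the median, was present outside the hosts. The intron-retaining share was lower with the precursor than in its control in 63.3% of 3262 genes with both kinds of transcript, and lower with the antimir in 44.7% of 2615 genes. Its median difference was -0.40 percentage points with the precursor and 0.14 with the antimir. In the hosts with such transcripts it ran from -6.13 to -1.50 and from -0.77 to 10.2. Among noncoding genes at 20 FPKM, which include these hosts, it was lower in 8 of 11 with the precursor and 2 of 10 with the antimir. Whole-locus entries, which bear a gene's identifier instead of a transcript's and which no source explains, had less FPKM with the precursor in 74.6% of 1593 genes and less with the antimir in 45.0% of 1493 genes. For the hosts these entries were low, from 0.131 to 2.90 FPKM. They were lower with the precursor in 5 of 6 hosts (GAS5 at 0.815 FPKM against 1.07 FPKM in its control, for example), SNHG5 being the exception, and higher with the antimir in 4 of 6. The part of this library-wide lean in the host values was not tested.

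**Figure D4:**
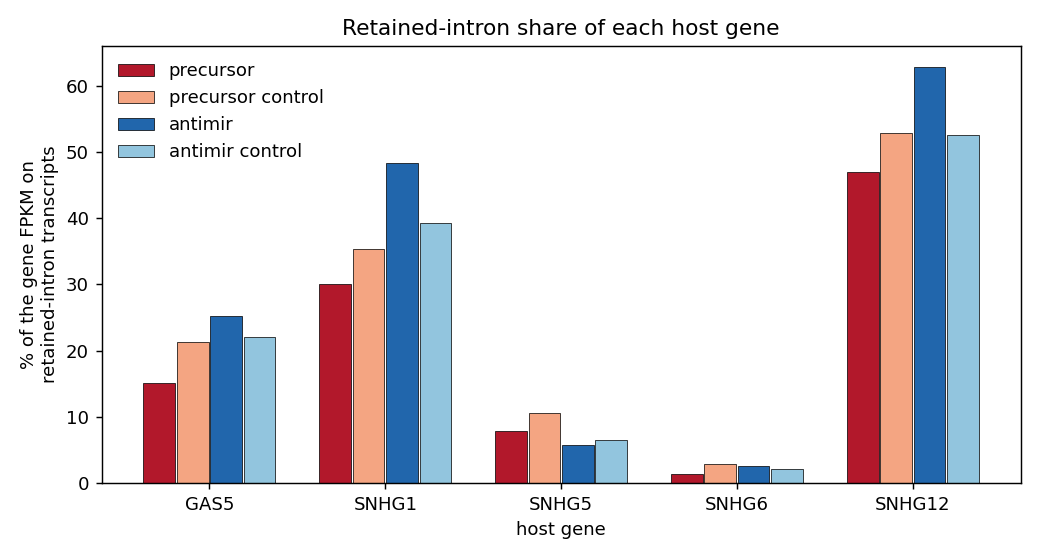
Bars of the percent of each host gene's FPKM in transcripts typed as retained intron, 1 bar each for the precursor, precursor control, antimir and antimir control libraries. The precursor bar is below its control bar in all 5 genes with such transcripts, and the antimir bar is above its control bar in all but SNHG5.

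How far the make-up of isoforms differed between libraries was measured as the percent of a gene's FPKM that would have to move to other isoforms to make 2 libraries alike. Between the precursor and its control this was 8.15% for GAS5, 11.7% for SNHG1 and from 2.28% to 9.20% for the others, against a median of 6.29% over 4145 genes with at least 3 transcripts. Between the antimir and its control it was 7.54% for GAS5, 13.5% for SNHG1 and from 2.30% to 11.8% for the others, against a median of 8.93%. Between the controls of the 2 tables it was 38.1% for GAS5 and 27.3% for SNHG1, against a median of 25.5%. For SNHG6 and SNHG7 it was 2.97% and 4.83% there. In GAS5 the form ENST00000452197, for example, was at 97.1 FPKM with the precursor and 106 FPKM in its control, but at 2.31 FPKM with the antimir and 1.12 FPKM in its control. In SNHG1 the form ENST00000538266 was at 24.5 FPKM with the precursor and 19.3 FPKM in its control, and was listed at 0 in both antimir libraries. The make-up of GAS5 and SNHG1 thus differed more between the 2 tables than between a treatment and its control. Culture, library and separate quantification cannot be told apart in that difference.

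The snoRNAs themselves were barely measured. The tables hold 29 snoRNA entries within the hosts' loci, all with the Cuffdiff status for loci too complex or too thinly covered to be tested. Of these, 26 were above 0 with the precursor and 25 in its control, against 14 with the antimir and 7 in the antimir control. The proportions over all SNORA and SNORD entries were 26.8% and 24.3% of 841 in the precursor table, and 17.2% and 11.3% of 839 in the antimir table. With the precursor 9 of the hosted entries were higher than in the control and 17 lower, and with the antimir 11 were higher and 3 lower. Of the 11 higher with the antimir, 7 were listed at 0 in its control. Among hosted entries above 0 in both libraries, 8 were higher and 17 lower with the precursor, and 4 were higher and 3 lower with the antimir. Over all snoRNA entries above 0 in both libraries, 65.8% of 190 were lower with the precursor and 53.4% of 88 were lower with the antimir.

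Single snoRNAs of one host differed from their control in both directions. In the GAS5 introns SNORD44 was at 552 FPKM with the precursor and 1129 FPKM in its control, while SNORD81 was at 409 FPKM with the precursor and 262 FPKM in its control. In SNHG1, SNORD26 was at 251 FPKM with the precursor and 71.3 FPKM in its control, while SNORD31 was at 324 FPKM with the precursor and 509 FPKM in its control. Hosts of single pairs gave SNORD50B (SNHG5) at 92.1 FPKM with the precursor and 509 FPKM in its control, and SNORA17 (SNHG7) at 22.8 FPKM with the precursor and 52.0 FPKM in its control. In SNHG12, SNORD99 was at 129 FPKM with the precursor and 458 FPKM in its control, and at 107 FPKM with the antimir and 120 FPKM in its control. Entries this short gain high FPKM from few reads, and a value listed at 0 may be a failed estimate, so no fold is given. These snoRNAs were chosen as examples after their values were seen.

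**Figure D5:**
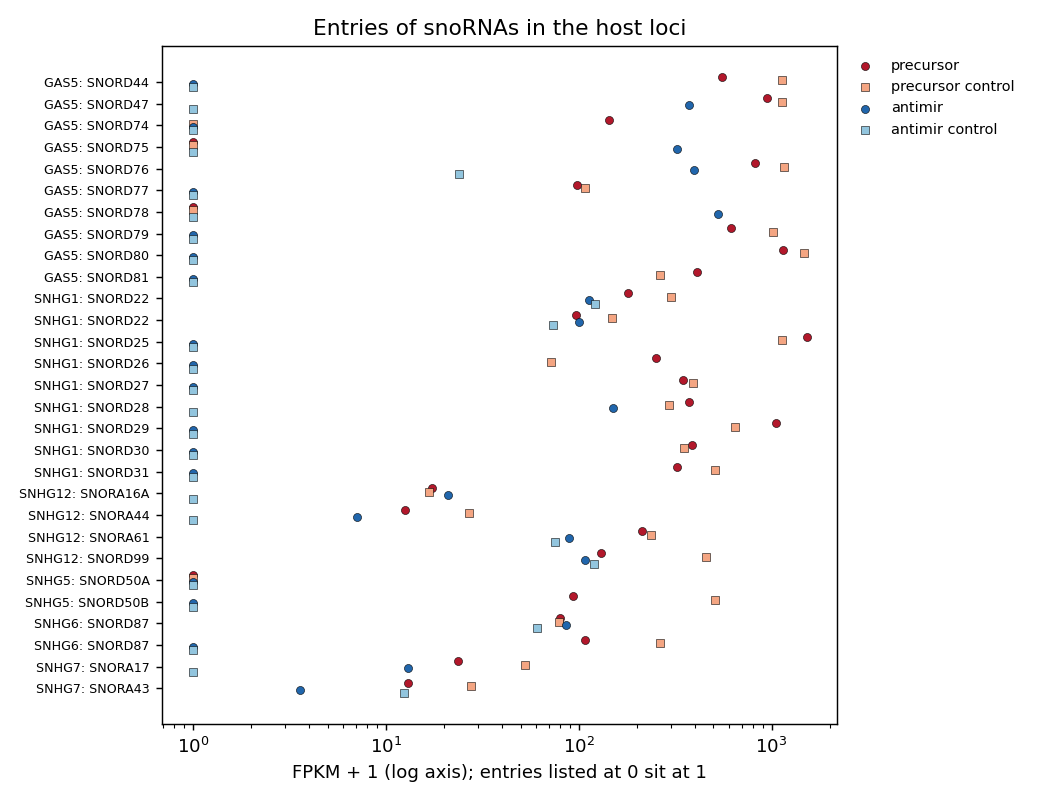
FPKM + 1 (log axis) of the 29 snoRNA entries in the host genes, 1 row per entry named by host and snoRNA, with circles for the precursor and antimir libraries and squares for their controls. Of the entries, 17 have the precursor circle left of its control square and 9 have it right of it, and most antimir-table points sit at 1, where entries listed at 0 are drawn.

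Other snoRNA hosts were set beside these genes. Of the other noncoding hosts 7 were measured, with medians of -0.03 with the precursor (3 above 0, 4 below) and 0.05 with the antimir (5 above, 2 below). EPB41L4A-AS1 was highest among those at 5 FPKM or more with the precursor, at 88.4 FPKM against 72.1 FPKM in its control, and SNHG9 was lowest, at 4.76 FPKM against 9.12 FPKM. SNHG10, named after its value was seen because its mean was under 5 FPKM, was at 7.47 FPKM with the precursor and 2.33 FPKM in its control. SNHG3 was at 334 FPKM with the precursor and 312 FPKM in its control, and at 284 FPKM with the antimir and 333 FPKM in its control. With 2 of 7 past 1.5-fold, both at low levels, these hosts spread more widely with the precursor than the 6 described above.

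The protein-coding hosts, mostly ribosomal protein and translation factor genes, had the opposite sign. Their 34 genes had a median of 0.03 with the precursor (25 above 0, 9 below) and -0.19 with the antimir (7 above, 27 below), with 0 past 1.5-fold in either. RPS13 was highest with the precursor at 2204 FPKM against 1807 FPKM in its control, and NOP56, a core protein of box C/D snoRNPs, was lowest at 184 FPKM against 214 FPKM. With the antimir TAF1D, a subunit of the RNA polymerase I initiation factor, was highest at 280 FPKM against 236 FPKM in its control, and RPL3 was lowest at 854 FPKM against 1204 FPKM. The 7 protein-coding hosts above 0 with the antimir were EIF4A2, NOP56, TAF1D, PPAN, WDR43, GNL3 and ATP5B, none of which encodes a ribosomal protein. Of all measured ribosomal protein genes, 58 of 79 were above 0 with the precursor, at a median of 0.06, and 74 of 77 were below 0 with the antimir, at a median of -0.18. The medians of the noncoding and the protein-coding hosts thus had opposite signs in both comparisons, at sizes under 0.2 log2, and no test of that difference was possible with 1 library per group. The median of the 6 noncoding hosts with the precursor was instead 0.075 when each gene was represented by its most abundant transcript. Without intron-retaining transcripts it was -0.010 with the precursor and 0.004 with the antimir.

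Genes that act with the hosts had medians close to 0. Of the snoRNP proteins, 3 of 10 were above 0 with the precursor (median -0.07) and 4 of 11 with the antimir (median -0.03). NOP58, the partner of NOP56, was at 160 FPKM with the precursor and 184 FPKM in its control, and at 109 FPKM with the antimir and 89.3 FPKM in its control. The assembly factor SHQ1 was lowest in both comparisons, at 21.0 FPKM with the precursor and 27.7 FPKM in its control, and at 5.97 FPKM with the antimir and 12.5 FPKM in its control. That antimir value of SHQ1, -0.92, was the only one of these proteins past 1.5-fold in either comparison. Nonsense-mediated decay factors, which degrade many spliced host RNAs, had 2 of 9 above 0 with the precursor (median -0.02) and 5 of 9 with the antimir (median 0.03), none past 1.5-fold. Among them SMG5 was at 66.4 FPKM with the precursor and 75.0 FPKM in its control, and UPF2 at 46.6 FPKM with the antimir and 43.4 FPKM in its control.

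The glucocorticoid receptor NR3C1, to which GAS5 can bind, was listed at 0 in both precursor-table libraries and was at 0.0102 FPKM with the antimir and 0.0392 FPKM in its control. Of its targets 5 were measured, all above 0 with the precursor at a median of 0.10, and 1 above 0 with the antimir at a median of -0.01. SGK1, one of these targets, was at 71.3 FPKM with the precursor and 66.0 FPKM in its control, and at 42.4 FPKM with the antimir and 44.1 FPKM in its control. MYC, a transcription factor that promotes ribosome production, was at 92.5 FPKM with the precursor and 82.6 FPKM in its control, and at 62.4 FPKM with the antimir and 71.3 FPKM in its control. MYC and its 4 measured relatives had medians of 0.14 and -0.20, and none passed 1.5-fold.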

How the data were processed

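RNA was sequenced from 4 HT29 cultures, 1 library per group. Per the submitters' processing notes, bcl2fastq 1.8.3, TopHat2 2.0.11, hg19, Cufflinks 2.2.0 and Cuffdiff were used. Their annotation and settings are not given in the sources used here. In all, 2 tables of FPKM per isoform were deposited by the authors, each normalised on its own and holding 1 treated library and its control. The deposited p-value and q-value set 1 library against 1 other, with no replicate of a condition. FPKM carries no read counts, so the depth is unknown and no interval is given.

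Transcripts that had not failed were summed per gene, without whole-locus entries. Differences were log2(FPKM + 1) of treated minus control, centred on the median gene, where the mean FPKM was 1 or more. This scale understates changes of low genes. The median removed was 0.022 with the precursor and -0.038 with the antimir. With 1 library per group no test was made. Transcript types came from GENCODE 29, matched by identifier, for 85 of 87 transcripts. The members, the gene lists and the rule for named genes (every member, the transcripts averaging over 5% of a gene's FPKM in a comparison, and the 2 highest and 2 lowest of a list at a mean FPKM of at least 5) were chosen with earlier results of these data known. Computation used Python 3.11.15, numpy 2.4.6 and pandas 2.3.3, checked on simulated data.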

Additional observations from a re-analysis of the deposited data

How the results depend on the processing

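The 6 host genes were recomputed under 11 alternatives in each comparison, 9 planned and 2 chosen after seeing the data. No gene passed 1.5-fold under any of them, and 119 of 132 values for single genes stayed within 0.1 log2 of the reported one. Of the 132 values, 16 had the opposite sign to the reported one. The median difference with the precursor became 0.075 when each gene was represented by its most abundant transcript alone. The number of genes above 0 with the precursor was 1, in place of 2, with a pseudocount of 0.1, with a mean FPKM of at least 5 and with centring on protein-coding genes. It was 3 for the most abundant transcript alone. The number above 0 with the antimir was 3, in place of 6, for the most abundant transcript alone and also without retained-intron transcripts. It was 5 with no filter, with no centring, with only the transcripts the authors tested and with FPKM multiplied by spliced length. Transcripts past 1.5-fold with the precursor numbered 4 at a mean FPKM of at least 5, 5 without retained-intron transcripts and 0 for the most abundant transcripts alone, in place of 14. The antimir counts were 19 with no filter, 3 at a mean FPKM of at least 5, 3 without retained-intron transcripts and 0 for the most abundant transcripts alone, in place of 11. These last 3 settings leave fewer transcripts. The antimir median was 0.00 without retained-intron transcripts, in place of 0.10, and between 0.061 and 0.12 under the other 10 alternatives. The transcript counts were not recomputed with whole-locus entries, with spliced lengths or with protein-coding centring. No paired analysis was possible because each group holds 1 library. Depth is unknown, so no limit of detection is given.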
